A study of Mus musculus with 24 samples.

Results

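Cytochrome P450 enzymes are heme proteins that oxidize fatty acids, sterols, vitamins, hormones, drugs and toxins. The microsomal members take their electrons from P450 oxidoreductase and cytochrome b5, and the mitochondrial members take them from ferredoxin. In the kidney most P450 activity lies in the proximal tubule, where the family makes vasoactive fatty acid products, sets the level of active vitamin D and handles foreign compounds. Here the family was taken as all protein-coding genes named by the pattern Cyp, number, letter, number, which found 99 of the 55416 gene IDs counted. The antisense gene Cyp4x1os matched the pattern but is not protein-coding and was left out, and the pattern does not reach Cyp51, Ptgis or Tbxas1. The rule itself reads names and no measured value.

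RNA had been sequenced from mouse kidney in 4 groups of 6 libraries, which the labels call biological replicates. The groups were Polg+/+ after sham surgery, PolgD257A after sham surgery, Polg+/+ after kidney ischemia and reperfusion (B-IRI in the labels), and PolgD257A after B-IRI. No other allele or agent is named for any group. Polg is the polymerase that copies mitochondrial DNA, and the D257A change removes its proofreading, so that mutations gather in mitochondrial DNA throughout the animal. Littermates of both genotypes were used to ask how such mutations add to ischemic injury. The sources used here do not give strain, age, number of mutant alleles or the time between surgery and sampling. All 24 libraries carried reads of Y-linked genes (Ddx3y at 1104 to 1631 normalized counts) and at most 7.42 normalized counts of Xist. This bears on the family because many mouse kidney Cyp genes differ between the sexes.

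Library totals ran from 16689284 to 26341004 assigned reads. Values below are normalized counts, which are reads divided by a size factor for each library, and are given as the lowest to the highest of the 6 libraries of a group with the median. Log2 changes are differences between group means of log2(normalized count + 1) with their standard error, which is pooled over the 24 libraries. Adjusted p-values come from limma's two-sided test over 17430 genes, and a gene was called higher or lower below 0.05. A member had enough counts to judge if at least 6 libraries reached 10 normalized counts, and 50 of the 99 did. Of these 50 members, from 27 of the 39 subfamilies, 31 averaged at least 100 normalized counts, 19 fewer, and 11 fewer than 30, where precision is low.

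The 49 other members could not be judged. They were 14 of the 23 members of subfamilies 2c and 2j, 18 of 32 in the drug and toxin subfamilies, 6 of 21 fatty acid hydroxylases, all 6 enzymes of steroid hormone synthesis, Cyp7a1 and Cyp8b1 of bile acid synthesis, Cyp26c1, Cyp1a2 and Cyp2ab1. In 14 of them no read was found in any library, which allows up to 3 of the 526926933 reads of all libraries (counting error only). These were Cyp7a1, Cyp11b2, Cyp19a1, Cyp2w1, Cyp2a22, Cyp2b13, Cyp3a16, Cyp3a41a, Cyp3a41b, Cyp3a44 and the 2c members Cyp2c37, Cyp2c50, Cyp2c54 and Cyp2c66. The other 35 had at least 1 read and reached at most 16.4 normalized counts (Cyp2d10). A filter on counts in 6 libraries can also drop a member that is present in few libraries, so these 49 are unjudged rather than absent.

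A pair on chromosome 7, Cyp2a4 and Cyp2a5, shows why close relatives need care, and their upstream sequences are shown because the pair moved apart after injury. Cyp2a4 is a steroid hydroxylase and Cyp2a5 a coumarin hydroxylase, and 38.01% and 37.03% of the 50-base windows of their exons occur in another gene. The 250 bases before the RefSeq start (GRCm38.p6, both on the plus strand, chr7:26306942-26307191 for Cyp2a4 and chr7:26835089-26835338 for Cyp2a5) read as follows, with capitals at the 4 mismatched bases.
Cyp2a4: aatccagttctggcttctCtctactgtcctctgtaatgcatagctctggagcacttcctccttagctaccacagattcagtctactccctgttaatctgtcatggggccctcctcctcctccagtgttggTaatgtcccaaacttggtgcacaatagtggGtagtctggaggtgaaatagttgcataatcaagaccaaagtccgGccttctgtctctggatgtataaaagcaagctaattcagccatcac
Cyp2a5: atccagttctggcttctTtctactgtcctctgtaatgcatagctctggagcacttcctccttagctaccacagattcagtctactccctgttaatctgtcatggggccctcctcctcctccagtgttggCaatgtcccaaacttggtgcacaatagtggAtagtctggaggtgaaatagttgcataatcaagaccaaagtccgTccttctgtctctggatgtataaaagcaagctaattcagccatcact
Of 251 aligned columns 245 were identical, 4 were mismatched and 2 were end gaps, since the annotated starts are offset. RefSeq promoter windows were at hand for 36 of the 50 judged members.

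In kidneys with normal Polg, B-IRI lowered much of the family and raised a smaller part. Of 50 judged members 35 changed, where 41.2% of all tested genes did. Of these 24 were lower and 11 higher, against 19.8% and 21.4% of all genes, and 15 were not past the threshold. In PolgD257A kidneys 40 changed (60.4% of all genes), with 26 lower and 14 higher, against 30.3% and 30.2% of all genes. The share of members that fell (48% and 52%) was above that of all genes, and the share that rose (22% and 28%) was close to it. The median change of the members was -0.33 in Polg+/+ and -0.67 in PolgD257A, against -0.01 and -0.00 for all genes. Of the members that fell, Cyp4f15 and Cyp2j8 reached the minimum of 10 normalized counts in sham libraries only (11 and 8 of 12), so that passing the filter made a fall likely. Without them 22 of 48 members were lower in Polg+/+ and 24 of 48 in PolgD257A. B-IRI and sham libraries did not overlap for 18 members in Polg+/+ (20.2% of all genes) and 31 in PolgD257A (36.2% of all genes). The share of all reads that came from the family was 0.782 to 1.04% in sham Polg+/+, 0.875 to 0.974% in sham PolgD257A, 0.625 to 0.899% in B-IRI Polg+/+ and 0.469 to 0.702% in B-IRI PolgD257A.

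**Figure D1:**
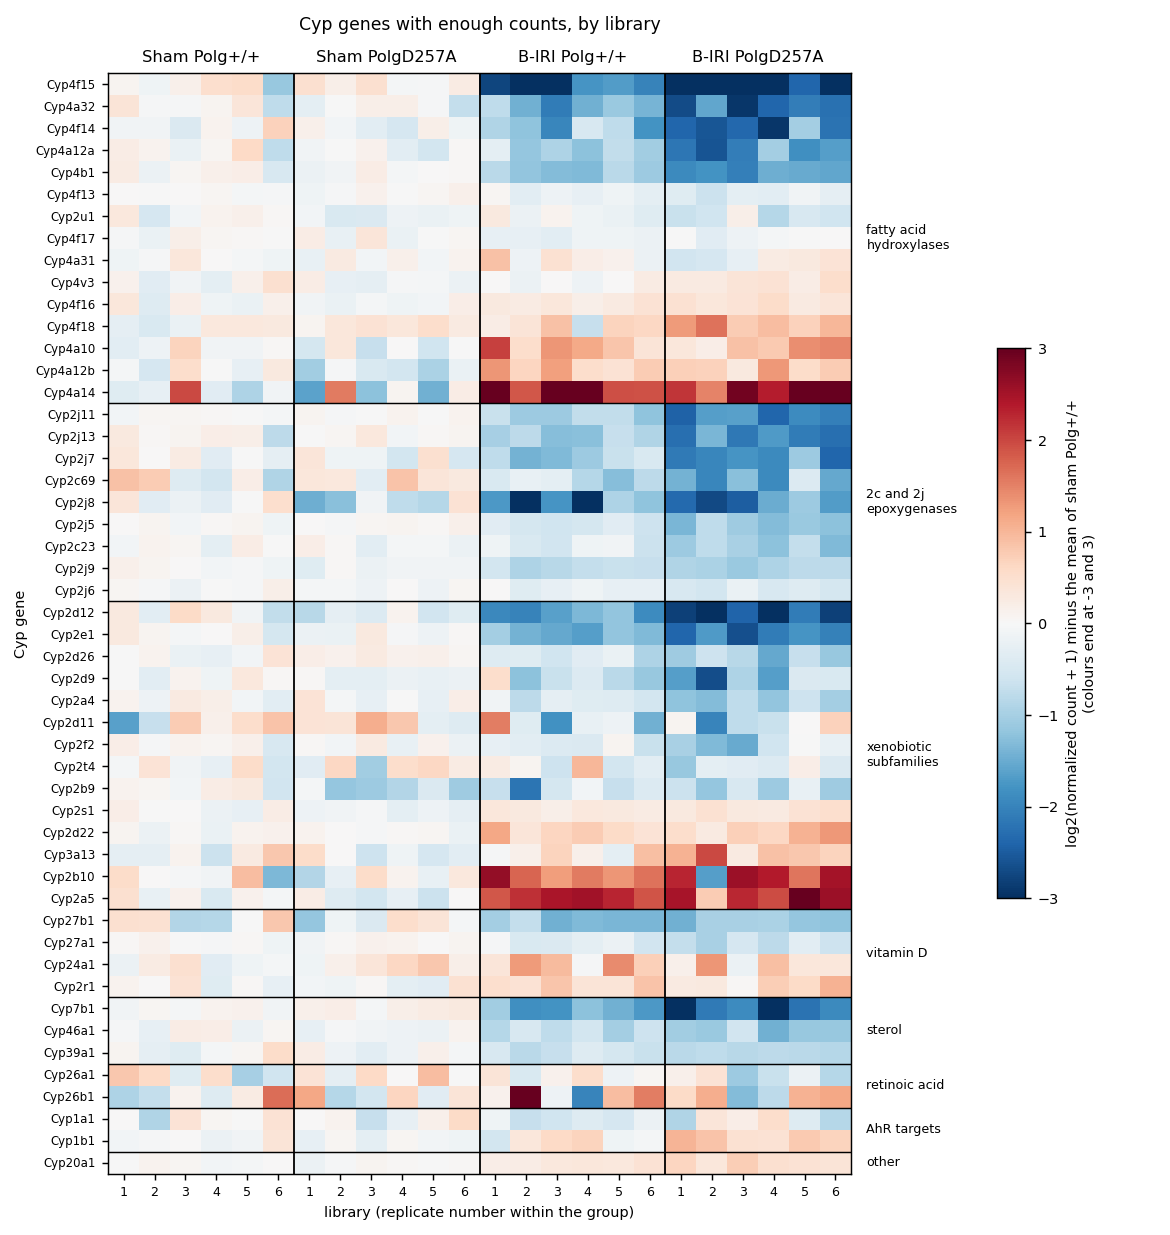
Colour gives log2(normalized count + 1) of each judged member (rows, grouped by role) in each of the 24 libraries (columns) minus the mean of the 6 sham Polg+/+ libraries. Blue blocks in both B-IRI groups mark the members that fell, such as Cyp4b1, Cyp2e1 and Cyp7b1, and red blocks mark those that rose, such as Cyp2a5 and Cyp4a14.

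Proximal tubule markers moved in the same libraries. Of 19 such markers, 0 rose and 14 fell in Polg+/+ (median -0.70), and 0 rose and 19 fell in PolgD257A (median -1.33). Their summed level was 540635 to 665635 in sham Polg+/+, 611157 to 705937 in sham PolgD257A, 328027 to 435325 in B-IRI Polg+/+ and 201068 to 289185 in B-IRI PolgD257A. Of 6 fibroblast markers, 4 rose and 1 fell in Polg+/+ and 5 rose and 1 fell in PolgD257A, and of 8 macrophage and monocyte markers 4 and then 5 rose while 1 fell in each. Of 6 endothelial markers 0 and then 3 rose while 1 fell in each. Of 8 markers of the loop and distal nephron 4 fell and 2 rose in Polg+/+ (median -0.30), and 5 fell and 0 rose in PolgD257A (median -0.61). The part of these cell types in the changes of the family was not tested. In bulk tissue, fewer cells of a type and less RNA per cell cannot be told apart.

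Per kilobase of exon, 3 genes made up most of the family's RNA in sham Polg+/+ kidneys. Cyp4b1, a fatty acid hydroxylase that also activates some lung and kidney toxins, led at 35839.6 ± 6349 normalized counts per kilobase (mean ± SD, n = 6), 38.4% of the members' sum. Cyp2j5, an arachidonic acid epoxygenase of the mouse proximal tubule, followed at 15606 ± 909.8 (16.7%), and Cyp2e1, which oxidizes ethanol and acetaminophen, at 14724 ± 2645 (15.8%). The libraries of Cyp2j5 and Cyp2e1 overlapped on this scale, so their order is not resolved, while those of Cyp4b1 lay above both. Cyp2a4 (5929.9 ± 886) and Cyp4a10 (3179.8 ± 879.8) came next, then Cyp2j11 (2480.1 ± 111), Cyp4a31 (2412 ± 317) and Cyp7b1 (2083 ± 156) per kilobase. Each neighbour in this order from Cyp2a4 on overlapped the next. In B-IRI PolgD257A kidneys Cyp4b1 was at 10882 ± 1741, Cyp2j5 at 7138 ± 1159, Cyp2a5 at 6906 ± 2953 and Cyp4a10 at 5873 ± 2098 per kilobase. Cyp4a14 at 3591 ± 2065 and Cyp2e1 at 3465 ± 834 came next there.

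Among the 14 judged members of the drug and toxin subfamilies 5 fell and 4 rose in Polg+/+ (median -0.37), and 6 fell and 5 rose in PolgD257A (median -0.63). Of all tested genes 19.8% fell and 21.4% rose in Polg+/+, and 30.3% fell and 30.2% rose in PolgD257A. The same shares are the background for the surgery counts of subfamilies and gene lists below. Cyp2e1 (chr7:140763739-140774987, GRCm38, plus strand) had normalized counts of 21822 to 38453 (median 32381) in sham Polg+/+, 27163 to 38390.5 (median 29359) in sham PolgD257A, 9895 to 15536 (median 12148) in B-IRI Polg+/+ and 5008 to 9660.4 (median 7496) in B-IRI PolgD257A. Every B-IRI library lay below every sham library, and within B-IRI every PolgD257A library lay below every Polg+/+ library. The fall was -1.36 ± 0.14, adjusted p = 4.1e-08 in Polg+/+, 2.56-fold, and -2.06 ± 0.14, adjusted p = 3.4e-12 in PolgD257A, 4.18-fold. The fall was larger in PolgD257A (interaction -0.71 ± 0.20, adjusted p = 0.019).

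**Figure D2:**
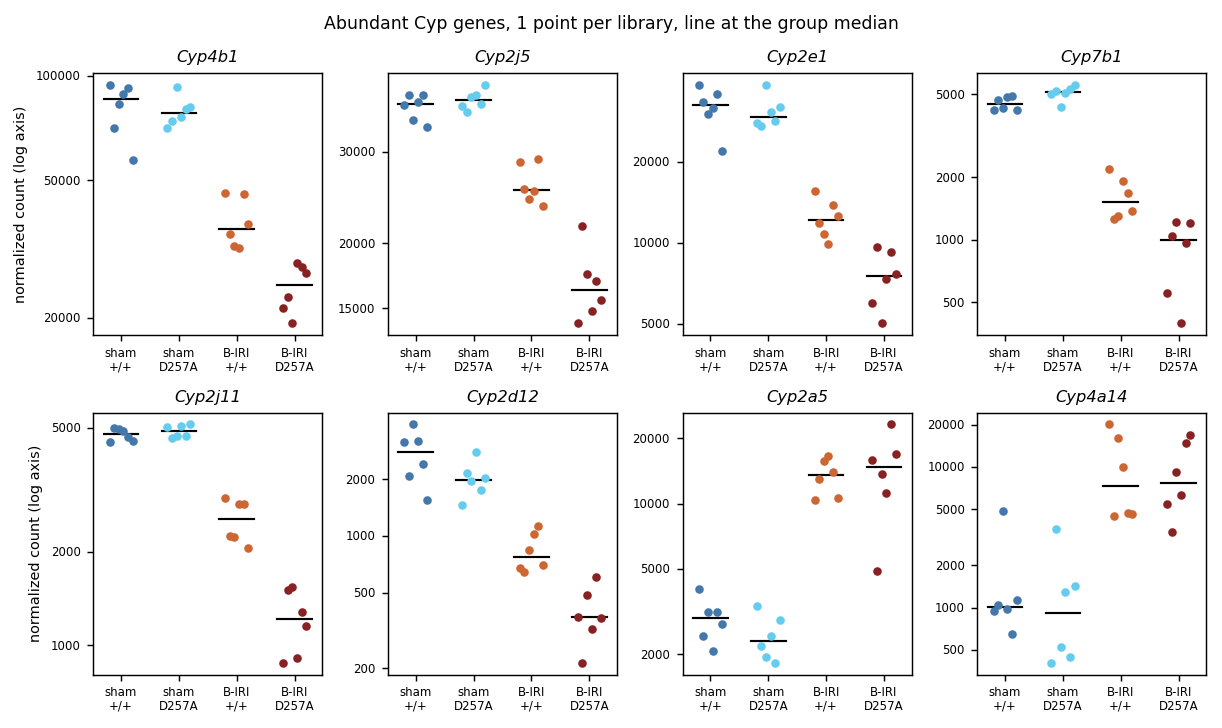
Each point is the normalized count of 1 library on a log axis, and the line is the median of the 6 libraries of a group. The 6 genes from Cyp4b1 to Cyp2d12 are lower after B-IRI, with Cyp2j11 at 879 to 1544 in B-IRI PolgD257A, while Cyp2a5 and Cyp4a14 are higher.

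Cyp2a5 went the other way. Its normalized counts were 2082 to 4013 (median 2955) in sham Polg+/+, 1834 to 3337 (median 2312) in sham PolgD257A, 10420.0 to 16566 (median 13529) in B-IRI Polg+/+ and 4896 to 23230.4 (median 14828) in B-IRI PolgD257A. Sham and B-IRI libraries did not overlap in either genotype, and the lowest injured library was replicate 2 of B-IRI PolgD257A. The rise was 2.20 ± 0.24, adjusted p = 7e-08 in Polg+/+, 4.59-fold, and 2.44 ± 0.24, adjusted p = 2.1e-09 in PolgD257A, 5.44-fold. The genotypes did not differ past the threshold after B-IRI (-0.03 ± 0.24, adjusted p = 0.95). Cyp2a4 had 8222 to 12214 (median 10366) in sham Polg+/+, 8637 to 13512 (median 9927) in sham PolgD257A, 5957 to 9548 (median 7818) in B-IRI Polg+/+ and 4172 to 6678 (median 4745) in B-IRI PolgD257A. Its B-IRI libraries overlapped with sham in Polg+/+ but not in PolgD257A. Cyp2a4 fell in Polg+/+ (-0.41 ± 0.13, adjusted p = 0.012) and further in PolgD257A (-1.02 ± 0.13, adjusted p = 1.3e-07, interaction -0.61 ± 0.18, adjusted p = 0.022). The predicted gene Gm42375 lies on the other strand of Cyp2a4 at a mean of 27.2 normalized counts, too few to bear on this level.

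The ratio of Cyp2a5 to Cyp2a4 within a library, which scaling between libraries does not touch, was 0.1804 to 0.363 (median 0.296) in sham Polg+/+, 0.212 to 0.247 (median 0.234) in sham PolgD257A, 1.09 to 2.18 (median 1.83) in B-IRI Polg+/+ and 1.17 to 3.61 (median 2.94) in B-IRI PolgD257A. Cyp2a4 had the higher count in all 12 sham libraries and Cyp2a5 in all 12 B-IRI libraries. Because reads from shared exon stretches can be assigned to neither or to the wrong gene, depending on how the counting treated them, the ratio itself is uncertain, and it shows unequal change without saying which gene moved. For the pair Cyp4a12b and Cyp4a12a, with 49.4% and 48.9% of windows shared, the ratio was 0.1001 to 0.375 (median 0.161) in sham Polg+/+, 0.0945 to 0.177 (median 0.144) in sham PolgD257A, 0.405 to 0.8098 (median 0.614) in B-IRI Polg+/+ and 0.904 to 1.76 (median 0.955) in B-IRI PolgD257A. For Cyp4a10 over Cyp4a31 it was 0.951 to 1.36 (median 1.03) in sham Polg+/+, 0.7099 to 1.15 (median 0.931) in sham PolgD257A, 1.600 to 2.46 (median 1.87) in B-IRI Polg+/+ and 1.603 to 2.38 (median 2.15) in B-IRI PolgD257A. The sham and B-IRI ranges did not overlap for any of the 3 pairs in either genotype. In all, 10 judged members shared more than 20% of their windows with another gene, and besides these 6 they were Cyp4a32, Cyp2c69, Cyp2d9 and Cyp2d11.

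**Figure D3:**
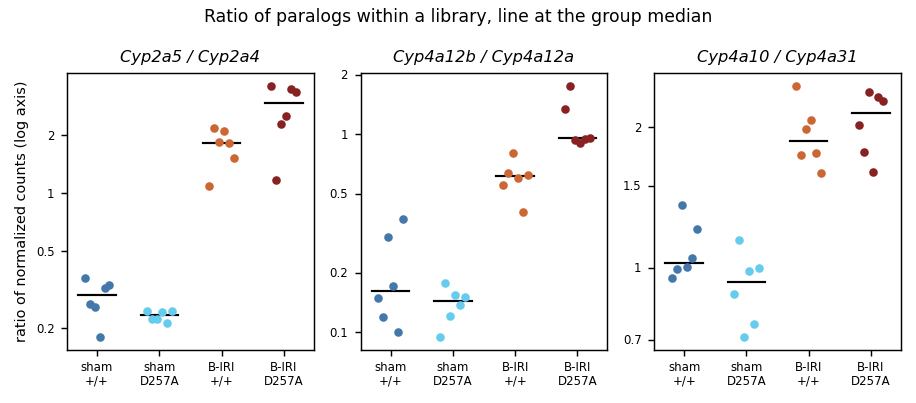
Each point is the ratio of the normalized counts of 2 related genes in 1 library, on a log axis, with a line at the group median. The median ratio of Cyp2a5 to Cyp2a4 goes from 0.296 in sham Polg+/+ to 1.83 in B-IRI Polg+/+, and no sham point reaches a B-IRI point in the 3 panels.

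The 2d members split. Cyp2d12 had normalized counts of 1552 to 3887 (median 2780.1) in sham Polg+/+, 1463 to 2771 (median 1988) in sham PolgD257A, 646 to 1135 (median 771) in B-IRI Polg+/+ and 214 to 606 (median 371) in B-IRI PolgD257A. No B-IRI library reached a sham library, and the injured genotypes did not overlap either. It changed by -1.66 ± 0.21, adjusted p = 8.5e-07 in Polg+/+ and -2.39 ± 0.21, adjusted p = 3.7e-10 in PolgD257A. Cyp2d26 had 2256 to 3552 (median 2574) in sham Polg+/+, 2753 to 3205 (median 2932) in sham PolgD257A, 1389.8 to 2314 (median 2058) in B-IRI Polg+/+ and 921 to 1739 (median 1379.7) in B-IRI PolgD257A. It fell in Polg+/+, where 1 or more libraries overlapped (-0.47 ± 0.13, adjusted p = 0.0048), and further in PolgD257A without overlap (-1.13 ± 0.13, adjusted p = 2.7e-08, interaction -0.66 ± 0.18, adjusted p = 0.014). Cyp2d22 rose instead, from 391 to 495 (median 469) to 582 to 1006 (median 689) in Polg+/+ and from 388 to 484 (median 458) to 543 to 1104 (median 712) in PolgD257A, with no overlap in either (0.65 ± 0.13, adjusted p = 0.00027, and 0.75 ± 0.13, adjusted p = 2.2e-05). Cyp2d9 passed only in PolgD257A (-1.11 ± 0.28, adjusted p = 0.0013, against -0.62 ± 0.28, adjusted p = 0.081 in Polg+/+, interaction adjusted p = 0.44), and replicate 1 of B-IRI Polg+/+ stood apart at 5487 normalized counts against 1621 to 2837 in the others.

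Cyp2b10, known in liver as the classic target of the drug receptor CAR, rose at low counts. Its overall range was 3.38 to 83.7, and the changes were 1.69 ± 0.50, adjusted p = 0.0085 and 1.68 ± 0.50, adjusted p = 0.0054. In PolgD257A replicate 2 of B-IRI was at 3.38 against a group median of 67.96, and without it the change was 2.33. Its relative Cyp2b9 passed in Polg+/+ at -0.77 ± 0.28, adjusted p = 0.03 and not in PolgD257A (-0.00 ± 0.28, adjusted p = 0.99), with an interaction of 0.76 ± 0.40, adjusted p = 0.2. That call was lost without a filter (adjusted p = 0.072) and without B-IRI Polg+/+ replicate 2 (-0.48) or sham Polg+/+ replicate 1 (-0.75), 4 (-0.72) or 5 (-0.71). Cyp2s1, which oxidizes retinoids and prostaglandin intermediates, rose from 384 to 462 (median 424) to 567 to 666 (median 611) in PolgD257A without overlap (0.54 ± 0.07, adjusted p = 2.7e-07) and also in Polg+/+, with overlap (0.28 ± 0.07, adjusted p = 0.0027). Cyp3a13 passed only in PolgD257A (1.11 ± 0.28, adjusted p = 0.0012, interaction adjusted p = 0.15), where replicate 2 of B-IRI stood apart at 48.2 against 14.1 to 24.99 in the others. Cyp2f2, a lung enzyme that activates naphthalene, also passed only there (-0.77 ± 0.20, adjusted p = 0.0016, interaction adjusted p = 0.32), and it overlaps Gm15883 on the other strand, at a mean of 177 normalized counts. Cyp2d11 and Cyp2t4 passed in no comparison, and Cyp2t4 overlaps Egln2, whose reads cannot be told from its own if the counting ignored strand.

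The epoxygenase subfamilies 2c and 2j, which turn arachidonic acid into epoxides that relax vessels, moved one way. Of 9 judged members 8 fell and 0 rose in Polg+/+ (median -0.74), and 9 fell in PolgD257A (median -1.29), counting Cyp2j8, which passed the filter through sham libraries only. The PolgD257A median is the value of Cyp2j8 itself. Among all genes 19.8% fell in Polg+/+ and 30.3% in PolgD257A. Cyp2j5 (chr4:96628773-96664154) had normalized counts of 33484 to 38644 (median 37111) in sham Polg+/+, 35809 to 40307 (median 37739) in sham PolgD257A, 23619.8 to 29092 (median 25351) in B-IRI Polg+/+ and 14042 to 21650.5 (median 16242) in B-IRI PolgD257A. No B-IRI library reached sham, and no B-IRI PolgD257A library reached B-IRI Polg+/+. It changed by -0.49 ± 0.08, adjusted p = 2e-05 in Polg+/+ and -1.19 ± 0.08, adjusted p = 1.8e-12 in PolgD257A (interaction -0.70 ± 0.11, adjusted p = 0.00027). Cyp2j11 had 4491 to 4979 (median 4786) in sham Polg+/+, 4629 to 5131 (median 4872) in sham PolgD257A, 2054 to 2972 (median 2546) in B-IRI Polg+/+ and 879 to 1544 (median 1217) in B-IRI PolgD257A. Its libraries were separate in the same way, and its sham range was narrow. It fell 1.9-fold in Polg+/+ (-0.92 ± 0.11, adjusted p = 3.4e-07) and 4.12-fold in PolgD257A (-2.04 ± 0.11, adjusted p = 5.1e-14), and its interaction had the smallest adjusted p of the family (-1.12 ± 0.16, adjusted p = 9.7e-05).

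Cyp2j13 had 3964 to 8274 (median 7444) in sham Polg+/+, 6434 to 8467 (median 7025) in sham PolgD257A, 2783 to 4188 (median 3535) in B-IRI Polg+/+ and 1418 to 2606 (median 1559) in B-IRI PolgD257A. Replicate 6 of sham Polg+/+ lay at 3964 against 6985 to 8274 in the others, and it alone reached into the B-IRI range. The falls were -0.98 ± 0.15, adjusted p = 1.2e-05 (-1.14 without that library) and -2.04 ± 0.15, adjusted p = 1.4e-11, with an interaction of -1.06 ± 0.22, adjusted p = 0.0018. Cyp2c23, the main kidney epoxygenase of its subfamily and named Cyp2c44 in GENCODE, had 429 to 613 (median 535) in sham Polg+/+, 419.6 to 608 (median 505) in sham PolgD257A, 338 to 487 (median 433) in B-IRI Polg+/+ and 209.9 to 323 (median 258) in B-IRI PolgD257A. Its ranges overlapped between sham and B-IRI in Polg+/+ but were separate in PolgD257A and between the injured genotypes. The change was -0.34 ± 0.12, adjusted p = 0.021 in Polg+/+, a call lost without B-IRI replicate 3 (-0.29) or 6 (-0.28) or sham replicate 5 (-0.29), and -0.95 ± 0.12, adjusted p = 7.2e-08 in PolgD257A (interaction -0.62 ± 0.16, adjusted p = 0.011). Cyp2j6 had 925 to 1181 (median 1028) in sham Polg+/+, 934 to 1078 (median 1006) in sham PolgD257A, 814 to 1054 (median 877) in B-IRI Polg+/+ and 715 to 907 (median 749) in B-IRI PolgD257A. Its falls were small, -0.20 ± 0.07, adjusted p = 0.016 and -0.38 ± 0.07, adjusted p = 2e-05. Cyp2j9 fell in both, at -0.74 ± 0.07, adjusted p = 1.7e-08 and -0.77 ± 0.07, adjusted p = 1.3e-09, with an interaction of -0.03 ± 0.10 (adjusted p = 0.87). At under 60 normalized counts in any library, Cyp2j7 changed by -0.95 and -1.80, Cyp2j8 by -2.01 (-1.31 with a pseudocount of 5) and -1.29, and Cyp2c69 by -1.72 in PolgD257A, all past the threshold, while Cyp2c69 in Polg+/+ was not (-0.65 ± 0.30, adjusted p = 0.085). The summed level of subfamily 2j was 43556 to 52454 in sham Polg+/+, 48915 to 54042 in sham PolgD257A, 30425 to 37274 in B-IRI Polg+/+ and 17299 to 26676 in B-IRI PolgD257A.

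Epoxides are cleared by the epoxide hydrolases. Ephx2, the soluble enzyme, changed by -0.21 ± 0.10, adjusted p = 0.12 in Polg+/+ and -0.51 ± 0.10, adjusted p = 0.00012 in PolgD257A. Ephx1, the microsomal enzyme, stood at -0.13 ± 0.09, adjusted p = 0.24 and -0.44 ± 0.09, adjusted p = 0.00011. Both passed only in PolgD257A, and neither interaction passed (adjusted p = 0.16 and 0.093).

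The 15 judged fatty acid and eicosanoid hydroxylases moved in both directions, with 6 lower and 4 higher in Polg+/+ (median -0.08) and 6 lower and 6 higher in PolgD257A (median -0.13). Among all genes 19.8% were lower and 21.4% higher in Polg+/+, and 30.3% lower and 30.2% higher in PolgD257A. Cyp4b1 (chr4:115624725-115647723), the most abundant member, had normalized counts of 57276 to 93983 (median 85671) in sham Polg+/+, 70659.9 to 92599 (median 78120.1) in sham PolgD257A, 31745 to 45778 (median 36212) in B-IRI Polg+/+ and 19269.6 to 28775 (median 24932) in B-IRI PolgD257A. B-IRI libraries lay below all sham libraries, and injured PolgD257A below injured Polg+/+. The falls were -1.09 ± 0.12, adjusted p = 1.3e-07 and -1.70 ± 0.12, adjusted p = 8.1e-12, with an interaction of -0.61 ± 0.18, adjusted p = 0.018, a call lost under quantile normalization (-0.42, adjusted p = 0.090).

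The fatty acid hydroxylases Cyp4a14 and Cyp4a10 rose. Cyp4a14 (chr4:115486200-115496142) had 647 to 4871 (median 1009) in sham Polg+/+, 406 to 3598 (median 911) in sham PolgD257A, 4487 to 20049 (median 7321) in B-IRI Polg+/+ and 3476 to 16772 (median 7743) in B-IRI PolgD257A. The spread within groups was wide, and 1 sham library in each genotype reached the B-IRI range, replicate 3 in Polg+/+ and replicate 2 in PolgD257A. It rose 6.7-fold in Polg+/+ (2.74 ± 0.52, adjusted p = 0.00015, or 3.14 without that sham library) and 8.66-fold in PolgD257A (3.12 ± 0.52, adjusted p = 1.2e-05, or 3.51 without it). Cyp4a10 had 5224 to 10375 (median 6063) in sham Polg+/+, 4014 to 8301 (median 5497) in sham PolgD257A, 8520.0 to 27152 (median 12940.2) in B-IRI Polg+/+ and 7499.7 to 18103 (median 11682) in B-IRI PolgD257A. Groups overlapped, and sham Polg+/+ replicate 3 stood above its group here too, at 10375 against 5224 to 6657 in the others. It rose by 1.04 ± 0.25, adjusted p = 0.0015 and 1.09 ± 0.25, adjusted p = 0.00045. The close relative Cyp4a31 had 5491 to 7610.2 (median 5836) in sham Polg+/+, 5159 to 7229 (median 6064) in sham PolgD257A, 5326 to 11047 (median 6721) in B-IRI Polg+/+ and 4054 to 7949.8 (median 6063) in B-IRI PolgD257A and passed in no comparison (0.22 ± 0.16, adjusted p = 0.3 in Polg+/+ and -0.09 ± 0.16, adjusted p = 0.66 in PolgD257A).

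Cyp4a12a, which makes a vessel-constricting product of arachidonic acid and depends on androgen, had 1209 to 3133 (median 2175) in sham Polg+/+, 1400.3 to 2261 (median 1987) in sham PolgD257A, 881 to 1688 (median 1041) in B-IRI Polg+/+ and 339 to 1021 (median 530.0) in B-IRI PolgD257A. Sham and B-IRI overlapped in Polg+/+ and were separate in PolgD257A. It changed by -0.90 ± 0.21, adjusted p = 0.0013 and -1.76 ± 0.21, adjusted p = 7.2e-08, and the interaction did not pass (-0.86 ± 0.30, adjusted p = 0.051). Cyp4a12b, its near-copy, had 263 to 541 (median 363) in sham Polg+/+, 182 to 363 (median 263) in sham PolgD257A, 501 to 937 (median 605) in B-IRI Polg+/+ and 453 to 923 (median 607) in B-IRI PolgD257A, with 1 or more libraries overlapping in Polg+/+ and none in PolgD257A. It rose by 0.82 ± 0.19, adjusted p = 0.0012 and 1.26 ± 0.19, adjusted p = 2.8e-06. Cyp4a32 had 126 to 279.9 (median 217) in sham Polg+/+, 130.2 to 239 (median 209) in sham PolgD257A, 49.4 to 126 (median 79.6) in B-IRI Polg+/+ and 27.2 to 71.9 (median 42.03) in B-IRI PolgD257A. Its B-IRI libraries were below all sham libraries in both genotypes, with falls of -1.37 ± 0.22, adjusted p = 1.8e-05 and -2.19 ± 0.22, adjusted p = 3e-09.

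The 4f and other hydroxylases carried fewer counts. Cyp4f15 fell on the log2 scale, with a change of -2.48 ± 0.38, adjusted p = 1.1e-05 and -4.02 ± 0.38, adjusted p = 1.1e-09, but it passed the filter through sham libraries only and never exceeded 34.3 normalized counts. With a pseudocount of 5 these changes became -1.73 and -2.43, and the PolgD257A change became -4.64 with a pseudocount of 0.5 and -4.73 in DESeq2. Cyp4f14 changed by -1.18 ± 0.27, adjusted p = 0.00089 and -2.13 ± 0.27, adjusted p = 1.3e-07. Cyp4f13, at 621 to 1084 normalized counts over all libraries, fell slightly, -0.18 ± 0.07, adjusted p = 0.044 and -0.36 ± 0.07, adjusted p = 0.0001, and its Polg+/+ call was lost in edgeR (adjusted p = 0.054), without a filter (adjusted p = 0.079) and on leaving out any of B-IRI Polg+/+ replicates 2 to 6 or sham Polg+/+ replicates 1 to 4 or 6 (-0.19 to -0.15). Cyp4f16 had 147 to 245 (median 195) in sham Polg+/+, 166 to 220.4 (median 180.3) in sham PolgD257A, 218 to 260.1 (median 233) in B-IRI Polg+/+ and 232 to 283 (median 251) in B-IRI PolgD257A and rose by 0.29 ± 0.10, adjusted p = 0.017 and 0.46 ± 0.10, adjusted p = 0.00016. The former call was lost without sham Polg+/+ replicate 2 (0.21). Cyp4v3, which acts on long fatty acids in the retina and elsewhere, had 99.4 to 178 (median 128) in sham Polg+/+, 106 to 147 (median 117) in sham PolgD257A, 113 to 151 (median 128) in B-IRI Polg+/+ and 148 to 184 (median 161) in B-IRI PolgD257A. It rose in PolgD257A (0.45 ± 0.12, adjusted p = 0.0017, against -0.00 ± 0.12 in Polg+/+, interaction 0.45 ± 0.16, adjusted p = 0.062). Cyp4f18, which inactivates leukotriene B4 in neutrophils, rose in PolgD257A at counts of at most 43.1 (0.71 ± 0.22, adjusted p = 0.0078, against 0.35 ± 0.22, adjusted p = 0.23 in Polg+/+, interaction adjusted p = 0.48), and it overlaps Zfp961 on the other strand, at a mean of 305. Cyp2u1 and Cyp4f17 passed in neither surgery comparison. Cyp20a1, whose substrate is unknown, had 305 to 347 (median 325) in sham Polg+/+, 289 to 343 (median 327) in sham PolgD257A, 373 to 438 (median 406) in B-IRI Polg+/+ and 414 to 546 (median 447) in B-IRI PolgD257A and rose without overlap in both genotypes (0.31 ± 0.06, adjusted p = 0.00038, and 0.52 ± 0.06, adjusted p = 8.7e-08).

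All 3 judged sterol enzymes fell in both genotypes. Cyp7b1 (chr3:18071950-18243338), which hydroxylates oxysterols on the way to bile acids and limits their levels, had normalized counts of 4174 to 4899 (median 4487) in sham Polg+/+, 4348 to 5523 (median 5116) in sham PolgD257A, 1255 to 2189 (median 1521) in B-IRI Polg+/+ and 397 to 1218 (median 1000.02) in B-IRI PolgD257A. No B-IRI library reached sham, and every injured PolgD257A library lay below every injured Polg+/+ library. It fell 2.85-fold in Polg+/+ (-1.51 ± 0.19, adjusted p = 7.8e-07) and 6.11-fold in PolgD257A (-2.61 ± 0.19, adjusted p = 1.1e-11), with an interaction of -1.10 ± 0.27, adjusted p = 0.0075. Cyp39a1, another oxysterol hydroxylase, had 189 to 361 (median 244) in sham Polg+/+, 198 to 286 (median 229) in sham PolgD257A, 139 to 186 (median 162) in B-IRI Polg+/+ and 135 to 145 (median 139) in B-IRI PolgD257A. Its injured PolgD257A libraries lay within a narrow band below all sham libraries. It changed by -0.59 ± 0.12, adjusted p = 0.00018 and -0.76 ± 0.12, adjusted p = 2.6e-06, and the interaction did not pass (adjusted p = 0.53). Cyp46a1, best known as the cholesterol hydroxylase of neurons, had 56.1 to 77.7 (median 67.03) in sham Polg+/+, 56.2 to 71.9 (median 61.2) in sham PolgD257A, 32.5 to 47.7 (median 41.1) in B-IRI Polg+/+ and 23.96 to 44.6 (median 30.1) in B-IRI PolgD257A. B-IRI and sham were separate in both genotypes (-0.71 ± 0.13, adjusted p = 9.4e-05, and -0.98 ± 0.13, adjusted p = 3.9e-07). Of 13 SREBP2 targets of cholesterol synthesis and uptake, 6 rose and 4 fell in Polg+/+ and 4 rose and 6 fell in PolgD257A, with medians of 0.01 and -0.07. Idi1 (-1.14 ± 0.14 and -1.52 ± 0.14) and Hmgcs1 (-0.50 ± 0.08 and -1.03 ± 0.08) were among those that fell and Sqle (0.58 ± 0.10 and 0.67 ± 0.10) among those that rose.

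The 4 vitamin D enzymes did not move together. Cyp27b1 (chr10:127048250-127053006), the kidney enzyme that makes active vitamin D, had 45.1 to 148 (median 98.7) in sham Polg+/+, 36.8 to 120.2 (median 78.03) in sham PolgD257A, 30.5 to 50.4 (median 32.2) in B-IRI Polg+/+ and 29.99 to 42.6 (median 39.7) in B-IRI PolgD257A. The sham libraries were scattered and the injured ones close together, and the ranges overlapped in both genotypes. It changed by -1.21 ± 0.27, adjusted p = 0.00065 and -0.97 ± 0.27, adjusted p = 0.0026. Cyp24a1 (chr2:170482708-170497145), which inactivates vitamin D, had 973 to 1729.6 (median 1162) in sham Polg+/+, 1129.6 to 2176 (median 1499.6) in sham PolgD257A, 1218 to 3314 (median 2224) in B-IRI Polg+/+ and 1100.4 to 3094 (median 1573) in B-IRI PolgD257A. Its groups overlapped throughout. It rose in Polg+/+ (0.79 ± 0.23, adjusted p = 0.0074) and did not pass in PolgD257A (0.15 ± 0.23, adjusted p = 0.59), and the interaction did not pass (-0.64 ± 0.32, adjusted p = 0.19). Pfdn4, which overlaps Cyp24a1 on the other strand with a mean of 324 normalized counts, makes that level uncertain if strand was ignored.

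Cyp27a1, a mitochondrial sterol and vitamin D hydroxylase, had 937 to 1134 (median 1033) in sham Polg+/+, 963 to 1128 (median 1075) in sham PolgD257A, 695 to 1001 (median 803) in B-IRI Polg+/+ and 522 to 829 (median 646) in B-IRI PolgD257A. It fell in Polg+/+, with overlap, and in PolgD257A, without (-0.33 ± 0.09, adjusted p = 0.0037, and -0.70 ± 0.09, adjusted p = 1.2e-07). Its interaction (-0.37 ± 0.12, adjusted p = 0.039) was lost without a filter (adjusted p = 0.073) and on leaving out any of 13 libraries, namely B-IRI Polg+/+ replicates 1, 4 and 5, B-IRI PolgD257A replicates 1, 2 and 4, sham Polg+/+ replicates 3, 4 and 6 and sham PolgD257A replicates 2, 3, 4 and 6 (-0.38 to -0.31). Cyp2r1, which adds the opening hydroxyl group to vitamin D, had 22.4 to 39.4 (median 29.4) in sham Polg+/+, 22.4 to 39.97 (median 26.7) in sham PolgD257A, 37.8 to 53.4 (median 40.4) in B-IRI Polg+/+ and 29.4 to 60.1 (median 39.4) in B-IRI PolgD257A. It rose in both, with overlapping ranges (0.57 ± 0.17, adjusted p = 0.01, and 0.55 ± 0.17, adjusted p = 0.0081). Of 10 other genes of vitamin D and FGF23 action 1 rose and 5 fell in Polg+/+ (median -0.13) and 3 rose and 6 fell in PolgD257A (median -0.57). The FGF23 co-receptor Kl fell (-0.64 ± 0.09, adjusted p = 3.6e-06 and -1.28 ± 0.09, adjusted p = 6.1e-12), and so did Vdr, the vitamin D receptor (-0.19 ± 0.08, adjusted p = 0.046 and -0.77 ± 0.08, adjusted p = 2.1e-09), and Lrp2, which takes up vitamin D with its carrier (-0.41 ± 0.11, adjusted p = 0.004 and -1.06 ± 0.11, adjusted p = 6.1e-09). Gc, the carrier, rose (0.44 ± 0.17, adjusted p = 0.042 and 0.54 ± 0.17, adjusted p = 0.0085).

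**Figure D4:**
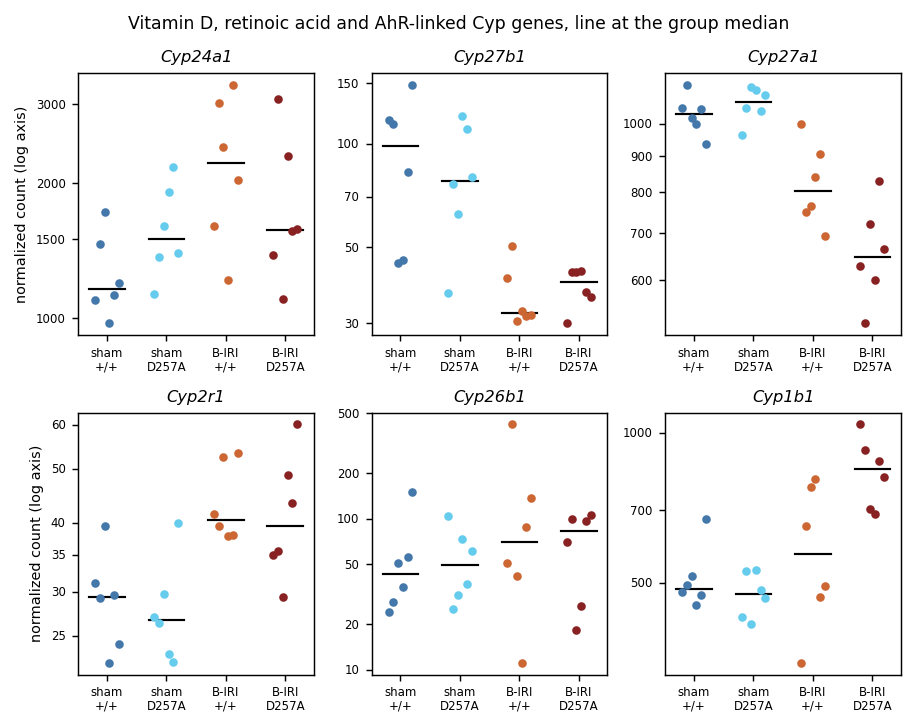
Each point is the normalized count of 1 library on a log axis, with a line at the median of the 6 libraries of a group, for the 4 vitamin D enzymes, Cyp26b1 and Cyp1b1. Cyp27b1 and Cyp27a1 are lower after B-IRI, Cyp1b1 is high in B-IRI PolgD257A (688 to 1039), and 1 B-IRI Polg+/+ library stands apart for Cyp26b1.

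The retinoic acid hydroxylases Cyp26a1 and Cyp26b1, which clear retinoic acid, passed in no comparison. Cyp26b1 had 24.3 to 150.4 (median 43.02) in sham Polg+/+, 25.4 to 105 (median 49.3) in sham PolgD257A, 11.2 to 423 (median 69.98) in B-IRI Polg+/+ and 18.5 to 106 (median 83.8) in B-IRI PolgD257A, with replicate 2 of B-IRI Polg+/+ at the top. Its surgery changes were 0.60 ± 0.60, adjusted p = 0.45 and 0.22 ± 0.60, adjusted p = 0.77. Cyp26a1 had 4.73 to 18.9 (median 11.6) in sham Polg+/+, 8.46 to 20.5 (median 12.3) in sham PolgD257A, 7.33 to 15.5 (median 11.2) in B-IRI Polg+/+ and 4.35 to 14.4 (median 7.63) in B-IRI PolgD257A, with changes of 0.08 ± 0.31 and -0.64 ± 0.31.

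Of the targets of the aryl hydrocarbon receptor, Cyp1b1 (chr17:79701537-79715061), which oxidizes estrogens and aromatic toxins, had 452 to 672 (median 487) in sham Polg+/+, 413 to 532 (median 475) in sham PolgD257A, 346 to 807 (median 572) in B-IRI Polg+/+ and 688 to 1039 (median 846) in B-IRI PolgD257A. In PolgD257A all injured libraries lay above all sham libraries, while in Polg+/+ the injured libraries spread across the sham range. It rose in PolgD257A (0.81 ± 0.15, adjusted p = 4.8e-05) and did not pass in Polg+/+ (0.15 ± 0.15, adjusted p = 0.46). The interaction was 0.66 ± 0.21, adjusted p = 0.035. It was lost in edgeR, without a filter and on leaving out any of 9 libraries, namely B-IRI Polg+/+ replicates 1, 5 and 6, B-IRI PolgD257A replicate 1, sham Polg+/+ replicates 3 and 6 and sham PolgD257A replicates 1, 3 and 6 (0.52 to 0.66). Cyp1a1 had 11.7 to 30.7 (median 23.3) in sham Polg+/+, 13.5 to 34.3 (median 23.5) in sham PolgD257A, 13.7 to 20.7 (median 16.5) in B-IRI Polg+/+ and 11.7 to 32.8 (median 21.6) in B-IRI PolgD257A and passed in no comparison (-0.41 ± 0.26, adjusted p = 0.22 in Polg+/+ and -0.15 ± 0.26, adjusted p = 0.62 in PolgD257A). Of the other targets of the receptor, Nqo1, a quinone reductase that also answers to oxidant stress, rose (1.504, adjusted p = 2.3e-11 and 1.82 ± 0.10, adjusted p = 7.8e-14) and Tiparp fell (-0.35 ± 0.06, adjusted p = 2.3e-05 and -0.24 ± 0.06, adjusted p = 0.00076), and Ahr itself rose slightly (0.26 ± 0.08, adjusted p = 0.017 and 0.33 ± 0.08, adjusted p = 0.0016).

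Without injury no member passed the test between genotypes. In sham kidneys 0 of 50 members were called by limma (0.126% of all genes were called, 0.0861% higher and 0.0402% lower), by edgeR or by DESeq2. Only 3 had an unadjusted p under 0.05, and the smallest adjusted p was 0.43. The median difference was -0.05, and the sham groups overlapped for all 50 members (0.631% of all genes did not).

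After B-IRI, 23 of 50 members differed between the genotypes (29.5% of all genes). Of these, 19 were lower and 4 higher in PolgD257A, with 15.2% and 14.3% of all genes lower and higher. The 19 include Cyp4f15, which reached at most 6.49 normalized counts in the B-IRI libraries and passed the filter through sham libraries only. Without Cyp4f15 and Cyp2j8, 18 of 48 members were lower and 4 higher. The share of members lower was 38% and the share higher 8%, and the median difference was -0.29 against 0.01 for all genes. For 8 members the 2 groups did not overlap (10.6% of all genes), namely Cyp2e1, Cyp2d12, Cyp2c23, Cyp2j5, Cyp2j11, Cyp2j13, Cyp4b1 and Cyp7b1. The largest differences among members with at least 100 normalized counts were Cyp2d12 (-1.12 ± 0.21, adjusted p = 0.00029), Cyp2j11 (-1.08 ± 0.11, adjusted p = 3.7e-07), Cyp4a12a (-0.99 ± 0.21, adjusted p = 0.00084), Cyp2j13 (-0.99 ± 0.15, adjusted p = 2.7e-05), Cyp4a32 (-0.94 ± 0.22, adjusted p = 0.0019) and Cyp7b1 (-0.93 ± 0.19, adjusted p = 0.00063). Cyp2e1 differed by -0.75 ± 0.14, adjusted p = 0.00031, Cyp2c23 by -0.68 ± 0.12, Cyp2j5 by -0.65 ± 0.08, Cyp4b1 by -0.63 ± 0.12, Cyp2a4 by -0.60 ± 0.13, Cyp2d26 by -0.51 ± 0.13, Cyp27a1 by -0.33 ± 0.09 and Cyp2j6 by -0.23 ± 0.07. The 4 that were higher were Cyp1b1 (0.56 ± 0.15, adjusted p = 0.0067), Cyp4f18 (0.70 ± 0.22, adjusted p = 0.02), Cyp4v3 (0.36 ± 0.12, adjusted p = 0.022) and Cyp20a1 (0.20 ± 0.06, adjusted p = 0.018).

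Some of these calls were lost under other settings or when 1 library was left out. Cyp20a1 was lost under quantile normalization (adjusted p = 0.064) and, at the edge, with only the 12 libraries compared (adjusted p = 0.0500015). It was also lost without replicate 1 of B-IRI Polg+/+ (0.18) and without replicate 1 (0.18) or 3 (0.15) of B-IRI PolgD257A. Cyp4f18 was lost without a filter (adjusted p = 0.054), with only the 12 libraries (adjusted p = 0.055), and without replicate 4 of B-IRI Polg+/+ (0.49) or replicate 2 of B-IRI PolgD257A (0.58), and Cyp4v3 without replicate 4 of the former group (0.33) or replicate 6 of the latter (0.32). Among the lower members, Cyp46a1 (-0.36 ± 0.13, adjusted p = 0.038) was lost in DESeq2 (adjusted p = 0.053), without a filter (adjusted p = 0.076), with only the 12 libraries (adjusted p = 0.097), and without any of B-IRI Polg+/+ replicates 2, 4 and 6 or B-IRI PolgD257A replicates 1, 2, 4, 5 and 6 (-0.37 to -0.29). Cyp2u1 (-0.42 ± 0.15, adjusted p = 0.033) was lost without a filter (adjusted p = 0.058), with only the 12 libraries (adjusted p = 0.066), without replicate 1 or 3 of B-IRI Polg+/+ and without replicate 1, 2, 4 or 6 of B-IRI PolgD257A (-0.41 to -0.35). The authors' deposited table of selected genes lists 15 members, 14 of them lower. Its label names injured PolgD257A but not the group compared with it. The signs match this comparison, but equally B-IRI against sham in PolgD257A and the interaction, so the signs alone do not tell which was made. It comes from the same libraries and is not independent of the calls above. In the authors' deposited table Cyp2j11 stands at -1.04 and Cyp7b1 at -0.75 on its shrunken log2 scale, and Cyp4f18 at 0.54 is the 1 higher member. The limma values of Cyp2j11 and Cyp7b1 between genotypes after B-IRI were -1.08 and -0.93. Their interactions were -1.12 and -1.10, and their surgery changes in PolgD257A were -2.04 and -2.61. In size these 2 genes were thus nearest to the genotype comparison after B-IRI, though shrinkage lowers the deposited values.

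The surgery change itself differed between the genotypes for 11 members (15.9% of all genes), 10 with a lower and 1 with a higher interaction, where 9.08% and 6.87% of all genes had a lower and a higher one. The 10 had fallen in both genotypes and fell further in PolgD257A. They were Cyp2j11, Cyp7b1, Cyp2j13, Cyp2e1, Cyp2j5, Cyp2d26, Cyp2c23, Cyp4b1, Cyp2a4 and Cyp27a1, from -1.12 to -0.37. In all, 23 members fell in both genotypes. By point estimate 21 of these fell further in PolgD257A (medians -0.92 and -1.29), the exceptions being Cyp2j8 and Cyp27b1. The 23 include Cyp4f15 and Cyp2j8, which passed the filter through sham libraries only, and the PolgD257A median is the value of Cyp2j8. A smaller set of 10 rose in both, 8 of them further in PolgD257A by point estimate (medians 0.73 and 0.92). The matching shares over all genes were not computed, and B-IRI changed more of all genes in PolgD257A (60.4%) than in Polg+/+ (41.2%). Of the 24 members that fell in Polg+/+, 18 were also lower in PolgD257A than in Polg+/+ after B-IRI, and of the 11 that rose 1 was higher (Cyp20a1) and 10 not past the threshold. Both of these comparisons use the B-IRI Polg+/+ libraries, so they are not independent. The 24 also include Cyp4f15 and Cyp2j8, and the matching shares over all genes were not computed. For the 11 members that rose in Polg+/+, no interaction passed. Of the proximal tubule markers, 16 of 19 were lower in PolgD257A after B-IRI (median -0.68) and 15 had a lower interaction (median -0.69). Of 8 loop and distal nephron markers 6 were lower and 4 had a lower and 1 a higher interaction. Higher in PolgD257A were 5 of 6 fibroblast markers (3 higher interactions), 3 of 6 endothelial markers (0 interactions) and 3 of 8 macrophage and monocyte markers (1 was lower, with 1 higher and 1 lower interaction). The part of these cell types in the differences of the family was not tested.

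**Figure D5:**
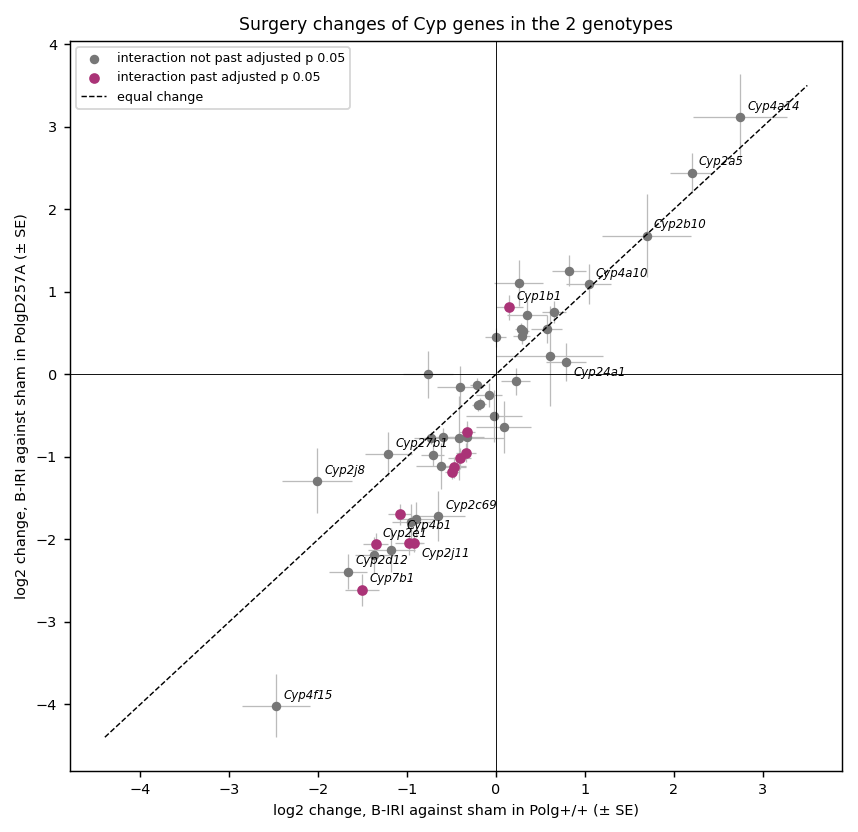
Each point is 1 of the 50 judged members, placed by its log2 change after B-IRI in Polg+/+ (x axis) and in PolgD257A (y axis), with bars for the standard errors and a dashed line of equal change. Coloured points are the 11 members whose interaction passed, 10 of them below the line and Cyp1b1 above it.

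The partners of the family moved in both directions. Of 8 electron donors and membrane partners 5 fell and 1 rose in Polg+/+ (median -0.30), and 6 fell and 1 rose in PolgD257A (median -0.44). Among all genes 19.8% fell and 21.4% rose in Polg+/+, and 30.3% fell and 30.2% rose in PolgD257A. Por, which feeds electrons to the microsomal members of the family, fell (-0.39 ± 0.08, adjusted p = 0.00018 and -0.67 ± 0.08, adjusted p = 2.1e-08). The cytochrome b5 genes Cyb5a (-0.53 ± 0.09 and -0.93 ± 0.09) and Cyb5b (-0.30 ± 0.06 and -0.64 ± 0.06) fell too, as did Fdx1, the mitochondrial ferredoxin (-0.31 ± 0.06 and -0.59 ± 0.06). Cyb5r3, the reductase of cytochrome b5, rose (0.32 ± 0.06, adjusted p = 7.4e-05 and 0.37 ± 0.06, adjusted p = 4.6e-06).

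Of 10 genes of heme synthesis and breakdown 3 rose and 3 fell in Polg+/+ and 3 rose and 7 fell in PolgD257A (medians -0.08 and -0.17). Hmox1, which degrades heme, rose (1.98 ± 0.18, adjusted p = 4.3e-09 and 3.04 ± 0.18, adjusted p = 2.7e-13, interaction 1.06 ± 0.26, adjusted p = 0.0067). Alas1, the rate-limiting enzyme of heme synthesis, rose (0.68 ± 0.13, adjusted p = 0.00015 and 0.77 ± 0.13, adjusted p = 1.2e-05), and Uros fell (-0.24 ± 0.07, adjusted p = 0.0076 and -0.64 ± 0.07, adjusted p = 2e-08). Of 15 judged receptors and factors that control P450 genes 3 rose and 3 fell in Polg+/+ and 3 rose and 7 fell in PolgD257A (medians -0.07 and -0.17). For all genes the shares that rose and fell were 21.4% and 19.8% in Polg+/+ and 30.2% and 30.3% in PolgD257A. The Polg+/+ counts of these receptors and factors were thus near the share of all genes. Hnf4a, which drives proximal tubule and liver genes, changed by -0.10 ± 0.08, adjusted p = 0.31 and -0.42 ± 0.08, adjusted p = 4e-05, and Cebpb by 0.75 ± 0.24, adjusted p = 0.016 and 1.38 ± 0.24, adjusted p = 2.2e-05.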

How the data were processed

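RNA of 24 mouse kidneys was extracted with RNeasy kits and turned into NEBNext Ultra II libraries, per the labels' protocols. The submitters' processing notes name FastQC, STAR, SAMtools, featureCounts, DESeq2 and GRCm38.p6, without versions. Whether counting used strand is not given in these sources. The deposited signal values are gene counts that the authors divided by 1 size factor per library, and multiplying back gave whole reads for 100% of values within 0.001. The authors' deposited table of selected genes holds a mean signal, a shrunken log2 fold change with its standard error, and an s-value, which is a p-value-like chance of a wrong sign. Columns named Ctrl, Mut and SurgBIR were read as Polg+/+, PolgD257A and B-IRI. No source used here states this reading, and every comparison rests on it.

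The test was limma-trend (limma 3.58.1 in R 4.3.3) on log2(normalized count + 1), with a mean for each group over all 24 libraries. It covered the 17430 genes that reached 10 normalized counts in 6 or more libraries, and p-values were adjusted by Benjamini-Hochberg within each contrast, with a threshold of 0.05. The pseudocount understates changes of low genes, and the p-values measure the spread between these libraries. Gene positions, exon lengths and biotypes come from GENCODE M21 on GRCm38, matched by gene ID without version, and the annotation behind the counts may differ. Promoters come from RefSeq. The family was proposed, and the gene lists were chosen, with earlier results of these data known. Values by group are given for Cyp2e1, for the 8 largest rises and falls per surgery contrast among members averaging at least 100 normalized counts, for members past the threshold in a genotype contrast or the interaction at that mean, and for the sterol, vitamin D, retinoic acid and aryl hydrocarbon receptor members. Of other lists, genes with the smallest adjusted p or moving against the list are named, and a few, such as Ahr, for their known role, chosen after their values were seen. Some results on genes that control or share targets with the family are not reported here. The limma model was tested on simulated counts, for the contrast of B-IRI against sham in Polg+/+ only, and the count models named below were not. The settings changed 1 at a time were the pseudocount (0.5 or 5), the filter (none or 50 normalized counts), the scaling (TMM or quantile), the libraries fitted (only the 12 compared, or each left out in turn), a block for the replicate number, and the count models of edgeR 4.0.16 and DESeq2 1.42.0, run on the recovered reads. Tables and figures were made with Python 3.11.15, pandas 2.3.3, NumPy 2.4.6 and Matplotlib 3.10.9.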

Additional observations from a re-analysis of the deposited data

Results flagged for a closer look

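Within a group of 6 libraries, a value was taken as apart when its gap to the nearest other exceeded 0.625 of the group's range (Dixon's test at 95%). This held for 19 of 200 groups tested (50 members in 4 groups), over 16 members. Chance alone would give about 1 in 20, or 10, if values were normal and groups independent. Untransformed counts of genes from the same libraries need not meet either condition, so 19 against 10 does not show an excess. Values are normalized counts. For sham Polg+/+ replicate 6, Cyp1b1 at 672 (452 to 517 in the others), Cyp26b1 at 150.4 (24.3 to 55.6 in the others) and Cyp2j13 at 3964 (6985 to 8274 in the others) stood apart. In B-IRI Polg+/+ replicate 2 this was Cyp26b1 at 423 (11.2 to 138 in the others). B-IRI Polg+/+ replicate 1 had Cyp2b10 at 83.7 (31.5 to 44.9 in the others), Cyp2d11 at 19.9 (1.05 to 5.56 in the others) and Cyp2d9 at 5487 (1621 to 2837 in the others). For B-IRI PolgD257A replicate 5, Cyp2c69 at 14.5 (4.23 to 7.61 in the others), Cyp2j7 at 16.3 (6.09 to 9.79 in the others) and Cyp4f14 at 28.9 (7.1 to 12.2 in the others) stood apart. In sham PolgD257A replicate 3 this was Cyp2j13 at 8467 (6434 to 7132 in the others). B-IRI PolgD257A replicate 3 had Cyp2u1 at 121 (58.6 to 76.8 in the others) and Cyp46a1 at 44.6 (23.96 to 31.7 in the others). For B-IRI PolgD257A replicate 2, Cyp3a13 at 48.2 (14.1 to 24.99 in the others) stood apart. In sham Polg+/+ replicate 3 this was Cyp4a10 at 10375 (5224 to 6657 in the others), Cyp4a14 at 4871 (647 to 1139 in the others) and Cyp4a31 at 7610.2 (5491 to 6050.5 in the others). Sham PolgD257A replicate 2 had Cyp4a14 at 3598 (406 to 1433 in the others). For sham PolgD257A replicate 6, Cyp4f16 at 220.4 (166 to 183 in the others) stood apart.

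The change after B-IRI differed between the genotypes, by the interaction term of limma with Benjamini-Hochberg adjusted p under 0.05, for 11 members. It was more negative in PolgD257A for Cyp27a1 (-0.37, adjusted p = 0.039), Cyp2a4 (-0.61, adjusted p = 0.022), Cyp2c23 (-0.62, adjusted p = 0.011), Cyp2d26 (-0.66, adjusted p = 0.014), Cyp2e1 (-0.71, adjusted p = 0.019), Cyp2j11 (-1.12, adjusted p = 9.7e-05), Cyp2j13 (-1.06, adjusted p = 0.0018), Cyp2j5 (-0.70, adjusted p = 0.00027), Cyp4b1 (-0.61, adjusted p = 0.018) and Cyp7b1 (-1.10, adjusted p = 0.0075). It was more positive for Cyp1b1 (0.66, adjusted p = 0.035). Dixon's test says nothing of why a library stood apart.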

How the results depend on the processing

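No called change of a member reversed its direction under the alternatives run, and the surgery counts of members higher and lower (11 and 24 in Polg+/+, 14 and 26 in PolgD257A) stayed within 1.5 times under each of them, with 10 to 12 and 22 to 26 higher and lower in Polg+/+ and 14 to 14 and 26 to 27 in PolgD257A when 1 library was left out. The genotype counts in sham were 0 throughout. After B-IRI the 4 members higher in PolgD257A became 2 when only the 12 libraries compared were fitted and 2 to 5 when 1 library was left out (2 without B-IRI Polg+/+ replicate 4), and the 19 lower became 17 to 22. The 1 member with a higher interaction became 3 in DESeq2, 0 in edgeR and 0 without a filter, and 0 to 3 when 1 library was left out. It was 0 without replicate 1 or 5 of B-IRI Polg+/+, replicate 1 of B-IRI PolgD257A, replicate 3 or 6 of sham Polg+/+ or replicate 3 or 6 of sham PolgD257A, 2 without sham Polg+/+ replicate 2 or 5, and 3 without sham Polg+/+ replicate 4. The 10 with a lower interaction became 9 to 15. The cause was not tested. With the replicate number as a block, members higher and lower were 11 and 25, 14 and 26, 0 and 0, 4 and 19, and 1 and 10, in the order of the surgery, genotype and interaction comparisons. Under the block the interaction of Cyp1b1 missed the threshold (adjusted p = 0.056) and that of Cyp4v3 passed (0.45, adjusted p = 0.045). Numbers did not pair the libraries, since correlations of same-numbered libraries ran from -0.33 to 0.17 and only 3 of 24 libraries correlated best with their own number. Calls lost under some alternative belonged to 13 members, none of them in the surgery comparison in PolgD257A, and besides those named with the results they include Cyp4f15 in the genotype comparison after B-IRI with a pseudocount of 5 (-0.53), under quantile normalization (-0.91) or with only the 12 libraries (-1.33). The difference of Cyp4f15 was -1.93 in DESeq2. Low counts limit the 11 judged members averaging under 30 normalized counts and leave 49 members unjudged.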

Other observations

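P450 enzymes that the naming pattern does not reach were measured in the same libraries. Cyp51, the demethylase of cholesterol synthesis, fell in both genotypes (-1.20 ± 0.16, adjusted p = 9.5e-07 in Polg+/+ and -2.05 ± 0.16, adjusted p = 1.9e-11 in PolgD257A by limma), further in PolgD257A (interaction -0.84 ± 0.22, adjusted p = 0.011). Tbxas1, the thromboxane synthase, fell as well (-0.33 ± 0.12, adjusted p = 0.026 and -0.47 ± 0.12, adjusted p = 0.0013). Ptgis, the prostacyclin synthase, passed in no comparison (-0.15 ± 0.15, adjusted p = 0.46 and -0.33 ± 0.15, adjusted p = 0.062).

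Steroid enzymes and other markers of the adrenal gland, which lies on the kidney, were also read, and carry-over of that tissue was not tested. Cyp11b1 and Cyp11b2 reached at most 0.888 and 0 normalized counts in any library, Cyp11a1 at most 2.36 and Cyp21a1 at most 6.33. The summed level of the 7 adrenal markers, mostly Star and Akr1b7, was 101 to 141 in sham Polg+/+, 85.4 to 133 in sham PolgD257A, 82.97 to 134 in B-IRI Polg+/+ and 96.8 to 132 in B-IRI PolgD257A. Of 7 liver markers 6 were judged, of which 2 rose and 3 fell in each genotype. Fgb, a fibrinogen chain, rose, with 13.5 to 51.6 in sham Polg+/+, 18.99 to 34.3 in sham PolgD257A, 149.6 to 619 in B-IRI Polg+/+ and 471 to 2599 in B-IRI PolgD257A. Serpina1a, which encodes an antitrypsin, rose as well, with 165 to 500.4 in sham Polg+/+, 246 to 343 in sham PolgD257A, 572 to 782 in B-IRI Polg+/+ and 299 to 962 in B-IRI PolgD257A. Alb fell, with 81.2 to 143 in sham Polg+/+, 110.1 to 162 in sham PolgD257A, 52.5 to 100.2 in B-IRI Polg+/+ and 41.8 to 82.5 in B-IRI PolgD257A, and so did Apoa2 and Ttr, the latter with 1028 to 3250.2 in sham Polg+/+, 1686 to 3521 in sham PolgD257A, 1245 to 1722 in B-IRI Polg+/+ and 556 to 805 in B-IRI PolgD257A. Apoa1 did not pass in either genotype, and Ahsg never exceeded 4.06.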
